A study of Mus musculus with 8 samples.

Results

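The genes described here encode the subunits of the oxidative phosphorylation machinery in the inner membrane of mitochondria. They were chosen by gene symbol from the bulk RNA-seq counts of mice that had met the early removal criteria (ERC), with a pattern that takes the Nduf, Sdh, Uqcr, Cyc1, Cox4 to Cox8 and Atp5 families. Of 24902 rows, 86 matched the pattern and 81 of these had a value in all 8 libraries, among 14072 rows with that property. By complex they were 35 genes of complex I, 4 of complex II, 10 of complex III, 15 of complex IV and 17 of complex V. Ndufa4 was counted with complex IV, where its product is now placed. After the filter on low counts 80 of the 81 were tested, Cox7a1 being left out, among 13173 genes in all.

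In oxidative phosphorylation, complexes I to IV of the respiratory chain pass electrons from NADH and succinate to oxygen and pump protons across the inner membrane, and complex V, the ATP synthase, lets the protons flow back to make ATP. Complex II also works in the tricarboxylic acid cycle and pumps no protons. Most subunits are encoded in the nucleus and imported, while a small hydrophobic set is encoded by mitochondrial DNA, and resting B cells are known to enlarge their mitochondrial mass when they are activated to divide.

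The study asked how raised PRMT5, an arginine methyltransferase, acts in the B-cell leukemia of mice that resembles chronic lymphocytic leukemia (CLL). Splenic B cells were taken with a pan-B isolation kit from 4 Eµ-PRMT5 mice (transgene Eµ-hPRMT5), 3 Eµ-PRMT5/TCL1 mice (Eµ-hPRMT5/hTCL1) and 1 Eµ-TCL1 mouse (Eµ-hTCL1), all given as strain C57BL/6N. In the Eµ-PRMT5 construct a VH promoter with the IgH-Eµ enhancer drives the human gene in B cells from the immature stage on, the Eµ-PRMT5/TCL1 mice are its cross with Eµ-TCL1 mice, and TCL1 is a B-cell oncogene under the same kind of enhancer. All 8 mice carry a transgene and had met ERC, ages are not given in the sources used here, and both sexes were used in the study. The title of Eµ-PRMT5 mouse 2 carries the identifier that the methods give to a founder animal. That of Eµ-PRMT5 mouse 4 carries the label of a mouse whose spleen and lymph nodes held small lymphocytes in sheets. The paper reads these as compatible with small lymphocytic lymphoma or CLL. The label in the title of Eµ-PRMT5 mouse 3 is that of a mouse described with anaplastic large lymphocytes and histiocytes. Whether these are the same animals is not stated. Each library is 1 mouse, so the p-values below measure the spread between mice of 1 group. WT mice were not analysed here. The paper's methods list 4 Eµ-TCL1 mice for the bulk RNA-seq at ERC, while the counts used here hold 1 Eµ-TCL1 library.

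Counts on genes per library ran from 3356297 for Eµ-TCL1 to 10252426 for Eµ-PRMT5 mouse 4. Eµ-PRMT5 mouse 1 had a value for 16379 symbols, against 20411 to 21475 in the other 7. Levels are given as CPM, a gene's count relative to the TMM-scaled size of its library, or as log2 CPM with a prior count of 2. Of the B-cell markers Cd79a, Cd79b, Ms4a1, Pax5, Cd22, Cd5 and Ptprc, 7 of 7 were measured in all mice, and their summed level was lowest in Eµ-PRMT5 mouse 4, at 2017 CPM against 2939 to 7021 CPM in the other 7. Their median log2 CPM was lowest in Eµ-PRMT5 mouse 2, at 8.31 against 8.39 in mouse 4. Cd79a, Cd79b, Ms4a1 and Ptprc were lowest in mouse 4. Cd22 (336 CPM there, 113 CPM for Eµ-TCL1), Cd5 (28.1 and 16.2 CPM) and Pax5 (83.6 CPM, against 65.9 CPM in Eµ-PRMT5/TCL1 mouse 1) were not. Summed markers of neutrophils and their precursors (11 of 11 measured) spanned 428 to 5412 CPM over the Eµ-PRMT5 mice and 664 to 9279 CPM over the Eµ-PRMT5/TCL1 mice, with 609.7 CPM for Eµ-TCL1. Those of macrophages and monocytes (6 of 9 measured, with Itgam at 0 in at least 1 mouse) spanned 1125 to 3324 CPM and 992 to 7326 CPM, with 1072 CPM for Eµ-TCL1. In bulk RNA, fewer cells of a type and less RNA per cell cannot be told apart. Mouse Prmt5 measured 128, 171, 62.7 and 235 CPM across Eµ-PRMT5 mice 1 to 4, 110.0, 115 and 126 CPM across Eµ-PRMT5/TCL1 mice 1 to 3 and 79.5 CPM for Eµ-TCL1. Human PRMT5 reads may have been assigned to it or dropped, which is not given in the sources used here, so it does not check the labels.

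The 81 genes took 0.882% of all counts for Eµ-TCL1, 1.97% for Eµ-PRMT5 mouse 4 and 1.01% to 1.26% in the other 6. Their median log2 CPM was 6.75, 6.54, 6.56 and 7.45 across Eµ-PRMT5 mice 1 to 4, 6.93, 6.58 and 6.94 across Eµ-PRMT5/TCL1 mice 1 to 3 and 6.19 for Eµ-TCL1. Eµ-PRMT5 mouse 4 was the highest of the 8 mice and the Eµ-TCL1 mouse the lowest, while Eµ-PRMT5 mice 1 to 3 and the Eµ-PRMT5/TCL1 mice overlapped. The mean of these medians over the 4 Eµ-PRMT5 mice was 6.82 ± 0.42 (SD, n = 4), over mice 1 to 3 alone 6.62 ± 0.11 (SD, n = 3), and over the Eµ-PRMT5/TCL1 mice 6.82 ± 0.21 (SD, n = 3). These 2 libraries are also the deepest and the shallowest, and the part of depth in the difference was not tested.

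By complex, the same mice stood at the ends. The median of complex V was 6.72, 6.79, 6.74 and 8.03 across Eµ-PRMT5 mice 1 to 4, 7.34, 6.82 and 7.25 across Eµ-PRMT5/TCL1 mice 1 to 3 and 6.12 for Eµ-TCL1, so that Eµ-PRMT5 mice 1 to 3 lay within 0.07 of each other and mouse 4 stood 1.24 above the nearest of them. That of complex I was 6.73, 6.38, 6.27 and 7.18 across Eµ-PRMT5 mice 1 to 4, 6.72, 6.52 and 6.75 across Eµ-PRMT5/TCL1 mice 1 to 3 and 6.20 for Eµ-TCL1. The 15 genes of complex IV had a median of 5.74 in the Eµ-TCL1 mouse against 6.496 to 7.45 in the other 7. Complex III ranged from 6.44 in the Eµ-TCL1 mouse to 8.05 in Eµ-PRMT5 mouse 4. Complex II was likewise lowest in the Eµ-TCL1 mouse, at 7.27, and highest in Eµ-PRMT5 mouse 4, with 7.50 to 8.10 in the other 6.

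**Figure D1:**
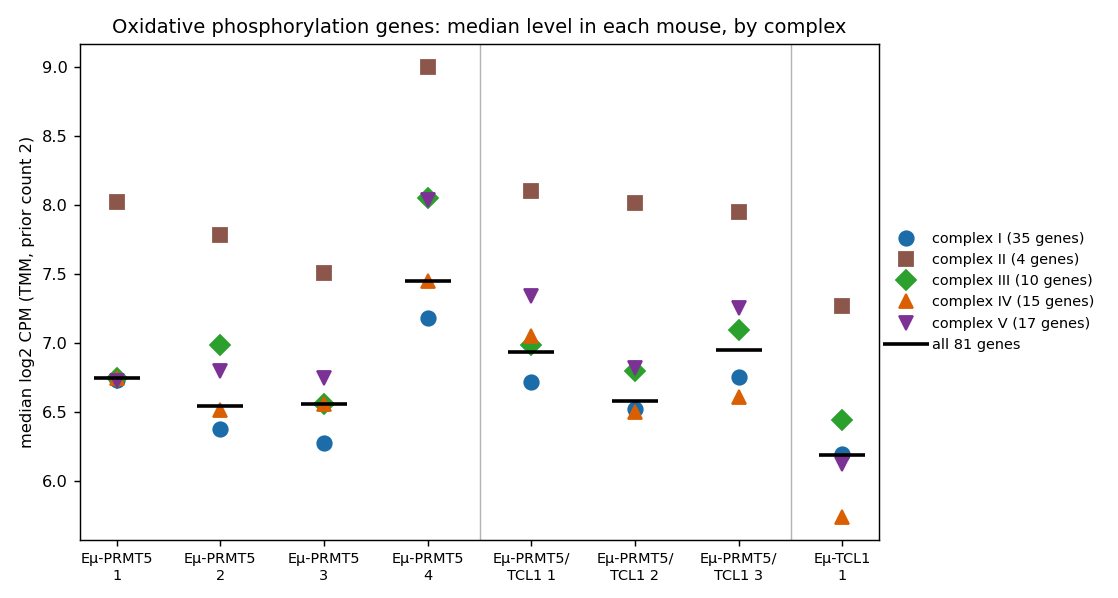
Median log2 CPM (TMM, prior count 2) of the oxidative phosphorylation genes in each of the 8 mice on the x axis, by complex (symbols) and over all 81 genes (black bars). In Eµ-PRMT5 mouse 4 all 5 complexes have their highest median (7.45 over all genes), and in the Eµ-TCL1 mouse their lowest (6.19).

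To compare genes with each other, CPM was divided by the annotated exon length in kb (GENCODE vM21, GRCm38), which 79 of the 81 symbols had. The length counts exons of all annotated transcripts, so it understates genes with long minor transcripts. Atp5a1, the alpha subunit of the ATP synthase, measured 365 ± 245 CPM per kb (mean ± SD over the 8 mice), Atp5b, its catalytic beta subunit, 270.1 ± 153, and Atp5c1, the gamma subunit of the rotating shaft, 172 ± 75.4. In complex IV, Cox8a, Cox6b1 and Cox4i1, all nuclear-encoded subunits of the common isoform, measured 293 ± 121, 269 ± 103 and 253 ± 109 CPM per kb, which do not differ beyond their spread. By the mean over the 8 mice, the highest was Ndufa1 in complex I (264 ± 55.8), Sdhd, a membrane anchor, in complex II (186 ± 99.1), and Uqcr11, Uqcr10 and Cyc1 in complex III at 165 ± 96.9, 158 ± 59.1 and 157 ± 88.4. The order was not the same in every mouse. In Eµ-PRMT5 mouse 4 Ndufb9, at 394 CPM per kb, was above Ndufa1 at 332. Sdhd was below Sdhb in Eµ-PRMT5 mouse 1 (145 against 168 CPM per kb) and for Eµ-TCL1 (80.4 against 106.5). Uqcr11 measured 394 CPM per kb in Eµ-PRMT5 mouse 4 but 103 in mouse 2, where Uqcr10 was at 155 and Cyc1 at 140.2. Cox8a was likewise below Cox6b1 in Eµ-PRMT5 mouse 1 and for Eµ-TCL1. At the low end, subunits expressed mainly in other tissues, Cox4i2, Cox8b and Cox7a1, measured 2.58 ± 1.60, 2.54 ± 1.57 and 1.38 ± 0.705 CPM per kb. The lowest values of complexes I, II, III and V were those of Ndufb2 (2.77 ± 0.590), Sdhc (10.4 ± 4.26), the pseudogene Uqcrh-ps1 (8.75 ± 7.28) and Atp5s (7.88 ± 3.63). Ndufb2 and Sdhc are constitutive subunits, and Ndufb2 has an annotated exon length of 5628 bases against a median of 1587 over the members.

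Within the Eµ-PRMT5 group, mouse 4 was above the other 3 mice for 63 of the 80 genes tested, where this held for 27.8% of all 13173 genes, and for 63 it was the highest of all 8 mice (20.1% of all genes, with 59 members under upper-quartile scaling and 58 under library size only). It was over 2-fold above the mean of the other 3 (log2 scale) for 38 of 80 genes (13.6% of all genes) and over 2-fold below for 0 (15.4%), and it was below the other 3 for 2 genes, Ndufs3 and Atp5sl (27.4%). The median difference of the 81 genes was 0.93 on the log2 scale, against -0.06 for all genes tested. Eµ-PRMT5 mice 1 to 3 lay within 1 on the log2 scale of each other for 63 of 80 genes (43.9% of all genes), and the Eµ-PRMT5/TCL1 mice for 75 of 80 (69.4%).

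**Figure D2:**
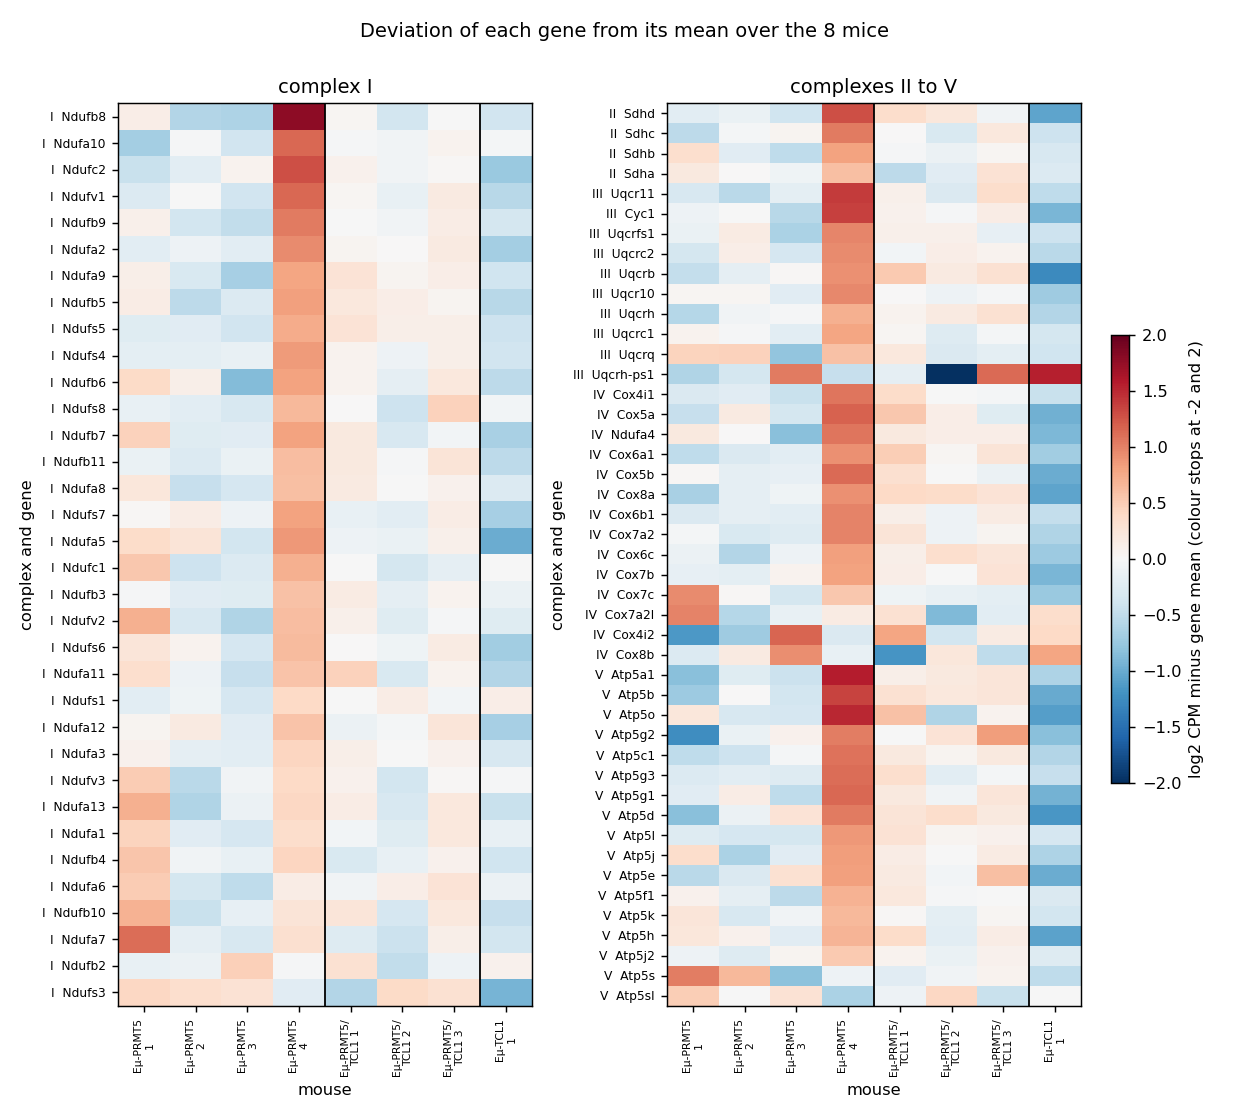
Log2 CPM of 79 of the 80 genes tested, each minus its mean over the 8 mice (colour, stopping at -2 and 2), with mice in columns and genes in rows, complex I at the left and complexes II to V at the right, ordered within each complex by the difference between Eµ-PRMT5 mouse 4 and the other Eµ-PRMT5 mice. Over all 80, mouse 4 is the highest for 63 genes and the Eµ-TCL1 mouse the lowest for 44, with Uqcrh-ps1, Cox7a2l and Cox8b among the exceptions.

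Among the roles, the F1 head of the ATP synthase had the widest median difference. The catalytic subunits of complex III (1.38) and the anchors of complex II (1.37) were close to it. Atp5a1 measured 557, 845, 738 and 2959 CPM across Eµ-PRMT5 mice 1 to 4, 1080, 1143 and 1178 CPM across Eµ-PRMT5/TCL1 mice 1 to 3 and 648 CPM for Eµ-TCL1. Mouse 4 was 4.15-fold above the mean of the other Eµ-PRMT5 mice, and the 3 Eµ-PRMT5/TCL1 mice, within 1.1-fold of each other, lay above Eµ-PRMT5 mice 1 to 3 and below mouse 4. Atp5b (GRCm38 chromosome 10, 128083273 to 128090391) measured 618, 1020, 789 and 2589 CPM across Eµ-PRMT5 mice 1 to 4, 1256, 1180 and 1198 CPM across Eµ-PRMT5/TCL1 mice 1 to 3 and 504 CPM for Eµ-TCL1. It showed the same order, with mouse 4 3.20-fold above the mean of the other 3 and the Eµ-TCL1 mouse lowest of all. Over the 5 genes of the F1 head (Atp5a1, Atp5b, Atp5c1, Atp5d and Atp5e) the median log2 difference of mouse 4 was 1.41, over the 3 genes of the c ring 1.36, over the 4 genes of the stalks 0.96, and over the 3 other membrane subunits 0.70. In the stalks, Atp5o, which links the F1 head to the peripheral stalk, was 3.10-fold higher in mouse 4, while Atp5f1 and Atp5h, subunits b and d, were 1.84-fold and 1.56-fold higher.

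The c ring turns with the proton flow and is built of copies of 1 protein, which Atp5g1, Atp5g2 and Atp5g3 each encode with a different import sequence. Atp5g1 measured 120.3, 155, 98.9 and 311 CPM across Eµ-PRMT5 mice 1 to 4, 161, 134 and 166 CPM across Eµ-PRMT5/TCL1 mice 1 to 3 and 72.5 CPM for Eµ-TCL1. Atp5g2 measured 39.6, 86.6, 101 and 193 CPM across Eµ-PRMT5 mice 1 to 4, 93.6, 114 and 169 CPM across Eµ-PRMT5/TCL1 mice 1 to 3 and 52.7 CPM for Eµ-TCL1. Atp5g3 measured 105, 111, 107 and 277 CPM across Eµ-PRMT5 mice 1 to 4, 162, 111 and 124 CPM across Eµ-PRMT5/TCL1 mice 1 to 3 and 93.004 CPM for Eµ-TCL1. All 3 were highest in Eµ-PRMT5 mouse 4, at 2.50, 2.55 and 2.58 times the mean of the other 3 mice, and Atp5g3 was nearly level in mice 1 to 3. Per kb, Atp5g2 (63.4 ± 31.4 CPM per kb) and Atp5g3 (62.5 ± 27.7) were at like levels, and Atp5g1 was lower (31.04 ± 14.6), by about the spread of either.

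In complex I the core subunits carry the electron path and the accessory subunits surround it. Ndufb8, an accessory subunit of the membrane arm (GRCm38 chromosome 19, 44548572 to 44555440), had the widest difference of all members. It measured 183, 111, 109 and 578 CPM across Eµ-PRMT5 mice 1 to 4, 171, 130.3 and 167 CPM across Eµ-PRMT5/TCL1 mice 1 to 3 and 129 CPM for Eµ-TCL1. Mouse 4 was 4.30-fold above the mean of the other 3, and the other 7 mice lay between 109 and 183 CPM. The 7 core genes had a median log2 difference of 0.78 and the 28 accessory genes one of 0.77. Ndufv1, which binds NADH, was 2.56-fold higher in mouse 4, and Ndufs7, Ndufs8, Ndufs1 and Ndufv2 between 1.496-fold and 1.83-fold. Ndufs3, also a core subunit, went the other way. It measured 58.5, 54.9, 53.3 and 37.2 CPM across Eµ-PRMT5 mice 1 to 4, 29.0, 56.9 and 54.1 CPM across Eµ-PRMT5/TCL1 mice 1 to 3 and 22.7 CPM for Eµ-TCL1. Mouse 4 was the lowest of the 4 Eµ-PRMT5 mice, and Eµ-PRMT5/TCL1 mouse 1 and the Eµ-TCL1 mouse were lower still.

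In 13 of 80 genes Eµ-PRMT5 mouse 1 was the highest of the 8 mice (19.3% of all genes tested), 7 of them accessory subunits of complex I. Ndufa7 measured 314, 129, 116 and 181 CPM across Eµ-PRMT5 mice 1 to 4, 121, 108 and 157 CPM across Eµ-PRMT5/TCL1 mice 1 to 3 and 112 CPM for Eµ-TCL1. Mouse 1 was above the other 7 mice, and mouse 4 was 0.969 times the mean of the other 3. Cox7a2l, which encodes an assembly factor of respiratory supercomplexes and no constitutive subunit of complex IV, measured 311, 105, 141 and 174 CPM across Eµ-PRMT5 mice 1 to 4, 192, 83.8 and 134 CPM across Eµ-PRMT5/TCL1 mice 1 to 3 and 199 CPM for Eµ-TCL1. Here too mouse 1 was highest, and the Eµ-TCL1 mouse came second.

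In complex II, Sdha and Sdhb, the subunits that oxidise succinate, were 1.47-fold and 1.86-fold higher in mouse 4 than in the mean of the other 3, and the anchors Sdhc and Sdhd 2.28-fold and 2.88-fold. Sdhd measured 178, 189, 157 and 503 CPM across Eµ-PRMT5 mice 1 to 4, 265, 243 and 198 CPM across Eµ-PRMT5/TCL1 mice 1 to 3 and 99.0 CPM for Eµ-TCL1. In complex III, cytochrome c1 (Cyc1) measured 286, 302, 207 and 785 CPM across Eµ-PRMT5 mice 1 to 4, 325, 299 and 339.9 CPM across Eµ-PRMT5/TCL1 mice 1 to 3 and 162 CPM for Eµ-TCL1. Uqcr11, a small accessory subunit, measured 76.7, 65.9, 83.7 and 253 CPM across Eµ-PRMT5 mice 1 to 4, 102, 78.2 and 122 CPM across Eµ-PRMT5/TCL1 mice 1 to 3 and 67.0 CPM for Eµ-TCL1. For these 3 genes mouse 4 stood apart, and the Eµ-TCL1 mouse was lowest for Sdhd and Cyc1. The Rieske iron-sulfur protein Uqcrfs1 and the core proteins Uqcrc1 and Uqcrc2 were 2.21-fold, 1.79-fold and 2.18-fold higher in mouse 4. Of the 11 common subunits of complex IV, 10 were highest in mouse 4, Cox7c being the exception, and their median log2 difference was 1.22. Cox5a and Cox5b, which sit beside the catalytic core, were 2.58-fold and 2.36-fold higher in mouse 4.

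**Figure D3:**
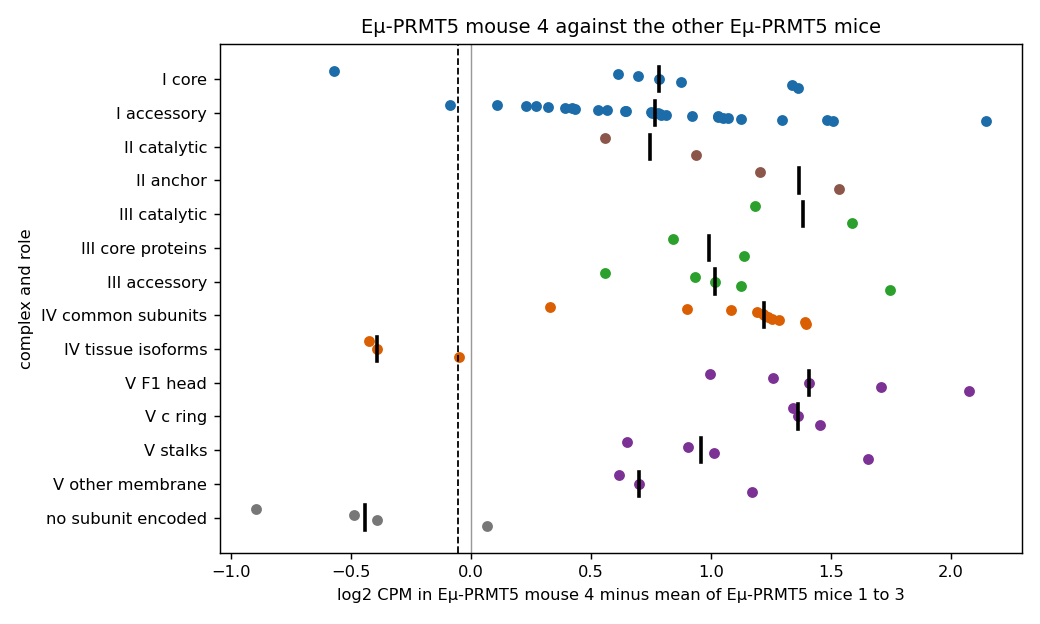
Log2 CPM in Eµ-PRMT5 mouse 4 minus the mean of Eµ-PRMT5 mice 1 to 3 (x axis) for each of the 81 genes (points), by complex and role (y axis), with the median of each role (black bar) and the median over all 13173 genes tested (dashed line, -0.06). The F1 head (1.41), the catalytic subunits of complex III (1.38), the anchors of complex II (1.37) and the c ring (1.36) have high medians among the roles. The tissue isoforms of complex IV (-0.39) and the genes that encode no subunit lie around or below 0.

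Of the paralog pairs of complex IV, the common isoform was the abundant one. Cox4i1, the common isoform of subunit 4, measured 301, 316, 269.7 and 777 CPM across Eµ-PRMT5 mice 1 to 4, 476, 368 and 359.6 CPM across Eµ-PRMT5/TCL1 mice 1 to 3 and 271 CPM for Eµ-TCL1, and Cox4i2, known from lung and hypoxic cells, between 0.609 and 4.33 CPM. Cox8a, the common isoform of subunit 8, measured 107, 148, 158 and 317.3 CPM across Eµ-PRMT5 mice 1 to 4, 221, 216 and 204 CPM across Eµ-PRMT5/TCL1 mice 1 to 3 and 80.6 CPM for Eµ-TCL1, and Cox8b, the muscle form, between 0.164 and 1.82 CPM. Cox7a2 lay between 73.8 and 224 CPM, and Cox7a1, the muscle form, between 0.27 and 1.38 CPM. Per kb of exon, each common isoform was at 78.2 CPM or more in every mouse and each tissue isoform at 5.50 CPM or less. In Eµ-PRMT5 mouse 4 the 3 common isoforms were between 2.28 and 2.63 times the mean of the other 3 mice and the tissue isoforms between 0.614 and 0.705 times it, the latter on 4 to 12 counts. Of the 5 rows that matched the pattern but lacked a value in at least 1 library, Cox6a2, Cox6b2, Cox7b2, Cox8c and Ndufa4l2, none exceeded 30 counts in any library. Their common paralogs Cox6a1, Cox6b1, Cox7b and Ndufa4 were highest in Eµ-PRMT5 mouse 4.

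Of the 81 genes 4 encode no constitutive subunit, and mouse 4 was highest in none of them. Beside Cox7a2l these are Uqcrh-ps1, a processed pseudogene, Atp5s, a coupling factor, and Atp5sl, named for its likeness to Atp5s. Atp5sl measured 57.2, 40.2, 49.7 and 25.9 CPM across Eµ-PRMT5 mice 1 to 4, 37.7, 54.5 and 29.8 CPM across Eµ-PRMT5/TCL1 mice 1 to 3 and 40.6 CPM for Eµ-TCL1, with mouse 4 below all other mice. Atp5s was highest in Eµ-PRMT5 mouse 1 (30.6 CPM) and between 8.21 and 23.4 CPM in the others. Uqcrh-ps1 lay between 0.143 and 5.68 CPM, highest in the Eµ-TCL1 mouse, and it shares sequence with Uqcrh, so its reads may be split between them. Of the 81 members 29 have another annotated gene with at least 95% identity over 150 bases, a pseudogene for 19 of them, and exons of 23 overlap exons on the other strand, among them Atp5a1, Uqcrb and Cox4i1. How such reads were assigned, and whether strand was used, is not given in the sources used here, and those values are uncertain to that extent.

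Eµ-PRMT5/TCL1 mice were compared with Eµ-PRMT5 mice, from which they differ by the TCL1 transgene. The paper reports a longer median survival for Eµ-PRMT5 than for Eµ-PRMT5/TCL1 mice. As all mice were taken at ERC, age and disease stage cannot be told apart from genotype in this comparison. With edgeR's quasi-likelihood test and Benjamini-Hochberg adjustment over 13173 genes, 0 of the 80 genes were higher and 0 lower at an adjusted p under 0.05 (0% of all genes in each direction), and 0 and 0 at an unadjusted p under 0.05, where 0.957% and 1.21% of all genes were. DESeq2 also gave 0 members in each direction at either threshold. The median log2 fold change of the members was -0.13 against -0.09 for all genes, with 19 positive and 61 negative (40.6% and 59.4% of all genes). By complex the medians were -0.13, -0.25, -0.22, -0.12 and -0.09 for complexes I to V, and they kept their sign under each scaling tried. The groups did not overlap for 0 members (1.35% of all genes higher and 1.59% lower), and 0 were over 4-fold higher or lower (0.288% and 0.418%).

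The most negative fold changes were those of Cox8b (-0.84, SE 0.87), Ndufb8 (-0.65, SE 0.55), Ndufa7 (-0.52, SE 0.40), Cox7c (-0.51, SE 0.37) and Atp5s (-0.43, SE 0.51). The most positive were those of Cox4i2 (0.29, SE 0.79), Atp5g2 (0.26, SE 0.46), Cox8a (0.23, SE 0.39), Cox6a1 (0.18, SE 0.39) and Uqcrb (0.17, SE 0.38). Each of the 10 was smaller in size than 1.5 standard errors. Cox7c, a common complex IV subunit, measured 116, 61.0, 47.0 and 87.2 CPM across Eµ-PRMT5 mice 1 to 4, 56.6, 54.3 and 52.7 CPM across Eµ-PRMT5/TCL1 mice 1 to 3 and 35.96 CPM for Eµ-TCL1. The 3 Eµ-PRMT5/TCL1 mice were nearly level and lay inside the range of the Eµ-PRMT5 mice.

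The sign of the comparison rested on Eµ-PRMT5 mouse 4. Without it the median log2 fold change was 0.21 (all genes -0.07), and by complex 0.16, 0.09, 0.20, 0.28 and 0.30 for complexes I to V, all 5 positive. Atp5a1 then had a log2 fold change of 0.67 in place of -0.17, Atp5b 0.58 in place of -0.05, and Ndufb8 0.22 in place of -0.65. With edgeR still 0 members passed an adjusted or an unadjusted p under 0.05. The 3 Eµ-PRMT5/TCL1 mice all lay above Eµ-PRMT5 mice 1 to 3 for 18 of 80 members, where 5.5% of all genes did, and below them for 0 (5.25%). This count keeps the scaling of all 8 mice and was added after seeing the data. The 18 were 5 genes of complex V (Atp5a1, Atp5b, Atp5c1, Atp5g3 and Atp5l), 5 of complex IV (Cox4i1, Cox6a1, Cox6b1, Cox6c and Cox8a), 5 of complex I (Ndufa2, Ndufb11, Ndufs1, Ndufs4 and Ndufs5), Uqcrb and Uqcrh of complex III, and Sdhd. Eµ-PRMT5 mice 1 to 3 had summed levels of the 6 dividing cell markers (Mki67, Top2a, Cdk1, Ccnb1, Birc5 and Pcna, 6 of 6 measured) of 425, 281 and 507 CPM, the Eµ-PRMT5/TCL1 mice 1121, 622 and 1299 CPM, Eµ-PRMT5 mouse 4 3028 CPM and the Eµ-TCL1 mouse 503 CPM. The part of dividing cells in these differences was not tested.

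**Figure D4:**
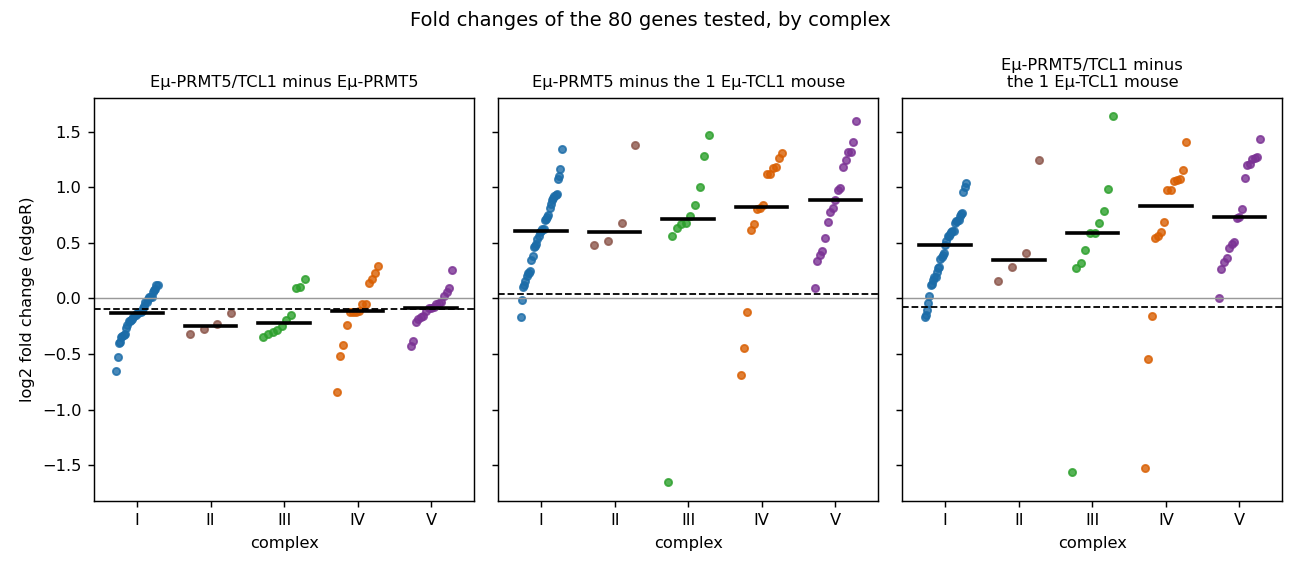
Log2 fold changes (y axis, edgeR) of the 80 genes tested, by complex (x axis), in the 3 comparisons, with points for genes, black bars for the median of a complex and a dashed line for the median of all 13173 genes tested. The medians lie near the dashed line between the genotypes with PRMT5 (-0.13 over the 80 genes against -0.09) and above it against the 1 Eµ-TCL1 mouse (0.71 and 0.57).

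The single Eµ-TCL1 mouse gives no spread of its own, so a test against it addresses the position of that animal relative to the replicated mice, not the genotype. Both comparisons below use the same Eµ-TCL1 mouse. With the 4 Eµ-PRMT5 mice set against it, 0 of 80 genes passed an adjusted p under 0.05 (0% of all genes), while at an unadjusted p under 0.05 there were 3 higher and 0 lower (1.96% and 4.82% of all genes). The count of 3 was 12 without Eµ-PRMT5 mouse 1, 7 without mouse 3 and 1 without any 1 of the Eµ-PRMT5/TCL1 mice, which share the estimate of the spread. The 3 were Atp5h, a stalk subunit, at a log2 fold change of 1.31 with an SE of 0.53 (edgeR, adjusted p = 0.709, unadjusted p = 0.0300), Ndufa5, an accessory subunit of complex I, at 1.34 with an SE of 0.58 (edgeR, adjusted p = 0.709, unadjusted p = 0.0397), and Uqcrb, a small subunit of complex III, at 1.47 with an SE of 0.64 (edgeR, adjusted p = 0.709, unadjusted p = 0.0396). Atp5h measured 153, 139.8, 112 and 210.4 CPM across Eµ-PRMT5 mice 1 to 4, 169.5, 113 and 145 CPM across Eµ-PRMT5/TCL1 mice 1 to 3 and 61.9 CPM for Eµ-TCL1. The Eµ-TCL1 mouse was lowest, with no overlap with either group. Uqcrb measured 34.7, 42.7, 49.0 and 91.4 CPM across Eµ-PRMT5 mice 1 to 4, 69.8, 54.6 and 59.9 CPM across Eµ-PRMT5/TCL1 mice 1 to 3 and 19.7 CPM for Eµ-TCL1, and again the lowest value was that of Eµ-TCL1.

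All 5 complexes had positive medians in this comparison. The median log2 fold change of the members was 0.71 against 0.04 for all genes, 74 of 80 were positive and 6 negative (51.9% and 48.1% of all genes), 0 were over 4-fold higher or lower (1.76% and 3.14%), and the medians of complexes I to V were 0.61, 0.60, 0.71, 0.82 and 0.89. For 46 of 80 members the 4 Eµ-PRMT5 mice were all above Eµ-TCL1 (17.9% of all genes), and for 1, Uqcrh-ps1, all below (24.4%). Without TMM, on library size alone, the first count was 28, so the number depends on the scaling. That scaling also moved the median of all genes to -0.21, and the members' median stayed 0.63 above it, against 0.67 with TMM, 0.64 with upper-quartile scaling and 0.68 with DESeq2. Without Eµ-PRMT5 mouse 4 the members' median was 0.37 (all genes 0.02). The largest fold changes beside Uqcrb were those of Atp5o (1.60, SE 0.80), Atp5d, the delta subunit (1.41, SE 0.67), Sdhd (1.38, SE 0.71) and Ndufa5, and the most negative those of Uqcrh-ps1 (-1.65, SE 1.21), Cox8b (-0.69, SE 1.19), Cox4i2 (-0.45, SE 1.17), Ndufs1 (-0.16, SE 0.45) and Cox7a2l (-0.12, SE 0.62). Ndufs1, the largest core subunit of complex I, measured 122, 133, 110.3 and 185 CPM across Eµ-PRMT5 mice 1 to 4, 140.0, 155 and 134 CPM across Eµ-PRMT5/TCL1 mice 1 to 3 and 154 CPM for Eµ-TCL1, so Eµ-TCL1 lay inside the ranges of both groups.

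With the 3 Eµ-PRMT5/TCL1 mice set against the same mouse, 0 of 80 genes passed an adjusted p under 0.05 (0% of all genes), while 3 higher and 0 lower were under an unadjusted p of 0.05 (1.75% and 4.33% of all genes). These were Uqcrb at 1.64 with an SE of 0.65 (edgeR, adjusted p = 0.778, unadjusted p = 0.0277), Cox8a at 1.41 with an SE of 0.64 (edgeR, adjusted p = 0.778, unadjusted p = 0.0489) and Atp5h at 1.201 with an SE of 0.54 (edgeR, adjusted p = 0.778, unadjusted p = 0.0464). Their number was 11 without Eµ-PRMT5 mouse 4, 6 without mouse 1, 1 without mouse 2, 0 without Eµ-PRMT5/TCL1 mouse 1 and 1 without either of the others of that group. The median log2 fold change was 0.57 against -0.07 for all genes, 72 of 80 were positive and 8 negative (46.6% and 53.4% of all genes), 0 were over 4-fold higher or lower (1.76% and 3.35%), and the medians of complexes I to V were 0.48, 0.35, 0.59, 0.83 and 0.74. All 3 were above Eµ-TCL1 for 65 of 80 members (27.6% of all genes) and below it for 4 (39% of all genes). The 4 were Cox7a2l, Cox8b, Ndufc1 and Uqcrh-ps1. The most positive beside Uqcrb and Cox8a were Atp5d (1.43, SE 0.69), the epsilon subunit Atp5e (1.27, SE 0.64) and Atp5b (1.26, SE 0.81), and Cox8b (-1.53, SE 1.24), Uqcrh-ps1 (-1.56, SE 1.27), Cox7a2l (-0.54, SE 0.63), Ndufc1 (-0.17, SE 0.56) and Cox4i2 (-0.16, SE 1.21) were the most negative. Cox8b and Uqcrh-ps1 rest on few counts in each library.

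Over all 8 mice the Eµ-TCL1 mouse was the lowest for 44 of 80 members (14.2% of all genes), 18 of them in complex I, 1 in complex II, 6 in complex III, 10 in complex IV and 9 in complex V. Eµ-PRMT5 mouse 3 was lowest for 16 (14.2%), mouse 2 for 7 (9.17%), mouse 1 for 5 (19.9%) and mouse 4 for 1 (17.9%). Of the Eµ-PRMT5/TCL1 mice, mouse 2 was lowest for 5 (8.03%), mouse 1 for 2 (7.62%) and mouse 3 for 0 (8.17%), and they were highest for 0 members each, where 6.38%, 5.88% and 5.77% of all genes were highest in mice 1 to 3. Eµ-PRMT5 mouse 2 was highest for 0 (8.65%), mouse 3 for 3 (12.7%) and Eµ-TCL1 for 1 (21.3%). Over the 81 genes, Cox7a1 included, the count was 45, and it was 31 with upper-quartile scaling and 26 with library size only.

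Other gene lists of the mitochondrion and of protein synthesis were set beside the members, without a test over the lists. The 77 mitochondrial ribosomal protein genes had a median log2 CPM of 5.91, 5.94, 5.70 and 6.55 across Eµ-PRMT5 mice 1 to 4, 5.93, 5.79 and 5.95 across Eµ-PRMT5/TCL1 mice 1 to 3 and 5.40 for Eµ-TCL1. The 17 enzymes of the tricarboxylic acid cycle ranged from 6.502 in the Eµ-TCL1 mouse to 7.53 in Eµ-PRMT5 mouse 4. The 81 cytosolic ribosomal protein genes ranged from 6.73 to 8.48 between the same mice. The median log2 difference between Eµ-PRMT5 mouse 4 and the other 3 was 0.74, 0.98 and 1.13 for these lists, against 0.93 for the members and 0.24 for the 49 assembly factors, which help to build the complexes and are no part of them. Mouse 4 was highest of the 8 mice for 60 of 77 mitochondrial ribosomal, 13 of 17 cycle, 75 of 81 cytosolic ribosomal and 17 of 49 assembly factor genes. Citrate synthase (Cs), the entry enzyme of the cycle, measured 142, 264, 194 and 730.0 CPM across Eµ-PRMT5 mice 1 to 4, 243, 255 and 277 CPM across Eµ-PRMT5/TCL1 mice 1 to 3 and 138 CPM for Eµ-TCL1.

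In Eµ-PRMT5/TCL1 against Eµ-PRMT5 mice 0 genes of any of these lists passed an adjusted or an unadjusted p under 0.05. In Eµ-PRMT5 mice against Eµ-TCL1, 21 of 81 cytosolic ribosomal, 5 of 76 mitochondrial ribosomal, 1 of 46 assembly factor (Uqcc2) and 0 of 17 cycle genes were higher without adjustment at that threshold, beside 1.96% of all genes, with 0 lower, and 0 passed it after adjustment. The 1 of 46 assembly factors is near that background share. Their median log2 fold changes were 1.16, 0.66, 0.18 and 0.66 beside 0.71 for the members. Among the assembly factors, Uqcc2, needed for complex III, was at 1.66 (SE 0.74, log2) and Lyrm7, which helps to insert the Rieske protein, at -1.61 (SE 0.81). The 13 subunits encoded by mitochondrial DNA were not analysed here.

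**Figure D5:**
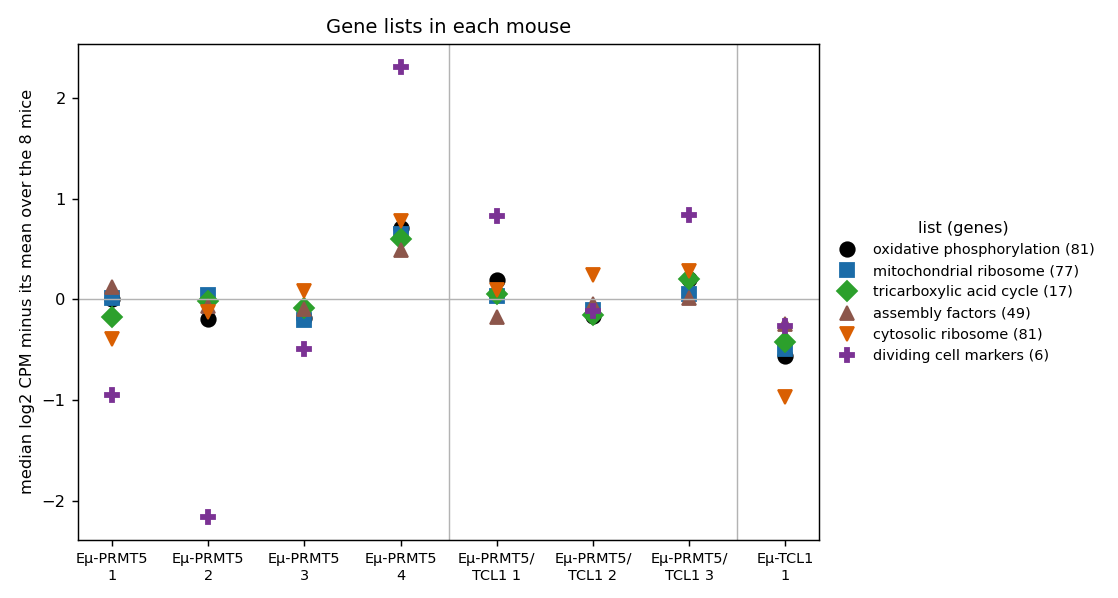
Median log2 CPM of 6 gene lists in each mouse (x axis), minus the mean of that median over the 8 mice (y axis), with the number of genes of each list in the key. All 6 lists are highest in Eµ-PRMT5 mouse 4, the dividing cell markers by the widest margin, and 5 of the 6 are lowest in the Eµ-TCL1 mouse, with the dividing cell markers lowest in Eµ-PRMT5 mouse 2.

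Promoters are shown for members that were high in Eµ-PRMT5 mouse 4 and for one that was not. RefSeq windows from 250 bases before to 50 bases after the start (GRCm38.p6) were found for 64 of the 81 members, in 69 windows. They were searched on both strands for the letters of 3 motifs known from promoters of respiratory genes, NRF1 (GCGCANGCG), GABPA and other ETS factors (CCGGAAG) and YY1 (AAGATGGCG). A window may hold more than 1, and matches may overlap, as the NRF1 letters on both strands of Atp5g2 do. NRF1 letters were in 30.4% of the members' windows, against 6.25% of all 32851 windows and 12.3% of the 12894 windows of genes tested. ETS letters were in 23.2%, against 8.86% and 16.5%, and YY1 letters in 10.1%, against 1.4% and 2.85%. At least 1 of the 3 was in 52.2%, against 14.8% and 27.9%. A match describes letters and shows no binding.
In the sequences, 5′ to 3′ on the gene's strand, capitals mark these letters. The 3 genes of the c subunit are shown since they encode 1 protein from 3 promoters, at chr11:96075582-96075881, chr15:102670998-102671297 and chr2:73911277-73911576, all on the minus strand:
Atp5g1: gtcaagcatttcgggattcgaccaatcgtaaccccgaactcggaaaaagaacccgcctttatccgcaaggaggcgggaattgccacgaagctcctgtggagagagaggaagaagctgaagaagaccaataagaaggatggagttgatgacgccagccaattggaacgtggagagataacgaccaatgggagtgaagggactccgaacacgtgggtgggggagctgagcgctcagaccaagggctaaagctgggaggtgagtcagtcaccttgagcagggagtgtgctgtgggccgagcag
Atp5g2: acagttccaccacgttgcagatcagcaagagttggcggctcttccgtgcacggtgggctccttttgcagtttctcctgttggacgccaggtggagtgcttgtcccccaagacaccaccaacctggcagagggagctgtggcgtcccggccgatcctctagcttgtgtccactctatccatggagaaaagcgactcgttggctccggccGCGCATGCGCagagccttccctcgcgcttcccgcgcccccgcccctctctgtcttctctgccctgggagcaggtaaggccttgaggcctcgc
Atp5g3: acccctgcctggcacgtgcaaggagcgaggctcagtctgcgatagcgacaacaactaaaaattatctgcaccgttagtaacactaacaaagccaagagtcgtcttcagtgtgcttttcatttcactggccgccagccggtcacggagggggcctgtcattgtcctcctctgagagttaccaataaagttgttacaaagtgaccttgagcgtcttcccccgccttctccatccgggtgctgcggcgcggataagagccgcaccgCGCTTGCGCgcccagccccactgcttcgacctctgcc
Uqcr11 (chr10:80406772-80407071, minus strand) and Ndufb8 (chr19:44555393-44555692, minus strand) were among the members with the widest differences between Eµ-PRMT5 mouse 4 and the other 3, and Cox7a2l (chr17:83514284-83514583, minus strand) was at 0.938 times their mean:
Uqcr11: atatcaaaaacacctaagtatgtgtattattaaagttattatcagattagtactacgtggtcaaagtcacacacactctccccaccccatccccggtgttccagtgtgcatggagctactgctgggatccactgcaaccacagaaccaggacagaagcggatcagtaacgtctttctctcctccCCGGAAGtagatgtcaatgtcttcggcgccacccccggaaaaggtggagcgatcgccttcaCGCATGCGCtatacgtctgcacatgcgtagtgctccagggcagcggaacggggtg
Ndufb8: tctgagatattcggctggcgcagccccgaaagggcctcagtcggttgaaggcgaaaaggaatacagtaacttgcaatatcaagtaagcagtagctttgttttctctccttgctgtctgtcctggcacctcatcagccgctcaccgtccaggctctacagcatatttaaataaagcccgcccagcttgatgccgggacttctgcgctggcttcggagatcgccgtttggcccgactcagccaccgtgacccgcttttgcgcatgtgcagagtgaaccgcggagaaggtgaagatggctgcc
Cox7a2l: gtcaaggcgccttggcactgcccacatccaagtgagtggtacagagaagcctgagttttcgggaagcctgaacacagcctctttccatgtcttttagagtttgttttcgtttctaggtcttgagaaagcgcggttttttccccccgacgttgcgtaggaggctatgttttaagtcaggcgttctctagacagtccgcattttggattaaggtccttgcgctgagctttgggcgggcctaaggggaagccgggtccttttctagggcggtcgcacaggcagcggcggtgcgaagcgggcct
Atp5g2 and Atp5g3 hold NRF1 letters and Atp5g1 holds none, while the 3 genes were between 2.50-fold and 2.58-fold higher in mouse 4. Uqcr11, with NRF1 and ETS letters, was 3.35-fold higher and Ndufb8, with none, 4.30-fold.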

How the data were processed

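Splenic B-cell RNA of 8 transgenic mice was sequenced. The deposited matrix holds whole-number counts per gene symbol, which the authors made per the submitters' processing notes with Subread and featureCounts on GRCm38, and DESeq2 1.20.0 is named there. The study's methods give a low-input kit with SMARTer cDNA, while the labels describe a TruSeq stranded kit, so strand use is uncertain. Aligner settings, annotation and the meaning of NA are not given in the sources used here. NA filled 36919 cells, and rows with one were left out, as were 26 symbols turned into dates.

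Counts were scaled by TMM and tested with edgeR 4.0.16 (filterByExpr, quasi-likelihood, 3 groups in 1 model, 2-sided, Benjamini-Hochberg over 13173 genes) in R 4.3.3. Figures used matplotlib 3.10.9, and near copies were found with blastn 2.17.0. The biological coefficient of variation was 0.483. Library totals were 3356297 to 10252426 counts, and low counts limit the tissue isoforms most. Groups came from the labels. Mice with equal numbers are different animals (correlations of their deviations 0.02, 0.11 and 0.16) and were not paired. Alternatives were DESeq2 1.42.0, other scalings, filters, prior counts and samples, and each mouse left out. The fit was tested on simulated data. Genes named are the 5 highest and lowest fold changes of each comparison, the highest and lowest level of each complex, core subunits, paralogs, genes with 1 Eµ-PRMT5 mouse apart, and pattern matches that encode no subunit. Members, lists and tests were chosen with earlier results of these data known. Values of some single genes are not reported here, and the B-cell marker sum was taken after seeing the data without 1 of its markers.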

Additional observations from a re-analysis of the deposited data

Results flagged for a closer look

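In the group of 4 Eµ-PRMT5 mice, a value was picked out where the gap between the extreme mouse and its nearest neighbour took a larger share of the group's range than Dixon's 95% critical value for 4 samples. Of 87 sets of values examined 23 were picked out, and 22 of these were single genes among the 81 members. The nominal rate of 1 in 20 would give 4.4, but it holds for independent and normally distributed values. The rule was not applied to other genes, so these counts do not show whether the members differ from them. Mouse 4 was the high one for 19 genes, and all genes of 1 mouse come from 1 library, so they are not 19 independent observations.

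In complex V, mouse 4 stood apart for Atp5a1 at 2959 CPM (others 557 to 845), for Atp5g3 at 277 CPM (105 to 111) and for the membrane subunit Atp5l at 156 CPM (67.2 to 71.4). The median log2 CPM of complex V was 8.03 in mouse 4 and 6.72 to 6.79 in the others. In complex IV the genes were Cox4i1 (777 CPM), Cox5b (231 CPM), Cox6a1 (245 CPM), Cox6b1 (361 CPM) and Cox7a2 (224 CPM). In complexes II and III they were Sdhd (503 CPM), Cyc1 (785 CPM), Uqcr10 (172 CPM) and Uqcr11 (253 CPM). In complex I they were Ndufa2 (173 CPM), Ndufb11 (145 CPM), Ndufb8 (578 CPM), Ndufs4 (119 CPM), Ndufs5 (90.7 CPM), Ndufs8 (306 CPM) and Ndufv1 (448 CPM). The narrowest spread among mice 1 to 3 was that of Ndufs4, an accessory subunit at 57.4 to 59.3 CPM. The same library had the most counts (10252426), the highest summed dividing cell markers (3028 CPM) and the lowest summed B-cell markers (2017 CPM). Beside Eµ-PRMT5 mice 1 to 3 it also had higher summed markers of neutrophils (5412 against 428 to 2718 CPM), macrophages and monocytes (3324 against 1125 to 1217 CPM) and erythroid cells (348 against 20.4 to 97.4 CPM), and lower summed plasma cell markers (681 against 1563 to 5740.3 CPM). Within the sum for macrophages and monocytes, Lyz2 alone measured 2865 CPM in mouse 4, against 897 to 980 CPM in mice 1 to 3. Of the 6 markers in that sum, 4 were higher in mouse 4 than in each of the other 3. Adgre1 was not (17.5 CPM, against 72.7 CPM in mouse 2), nor was Cd14 (60.3 CPM, against 70.02 CPM in mouse 1). The part of depth and of all these markers in the values above was not tested.

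Mouse 3 stood apart for 3 genes. Uqcrq, a small subunit of complex III that helps to hold cytochrome b, was at 105 CPM there and at 248 to 276 CPM in the other 3. Ndufb2 was at 21.4 CPM against 13.8 to 15.1, at the critical value itself, and the pseudogene Uqcrh-ps1 at 3.88 CPM against 1.01 to 1.27.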

How the results depend on the processing

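With DESeq2, 11 members were higher in Eµ-PRMT5 and 5 in Eµ-PRMT5/TCL1 mice than in the Eµ-TCL1 mouse at an unadjusted p under 0.05 (3 and 3 with edgeR), and 2 in place of 4 had all Eµ-PRMT5/TCL1 mice below it. With upper-quartile scaling the log2 fold change of Atp5b between the genotypes with PRMT5 was 0.0523, and 2 members in place of 1 had all Eµ-PRMT5 mice below Eµ-TCL1. With library size only, Atp5b was at 0.0316, 1 member passed the unadjusted threshold in each comparison with Eµ-TCL1, 28 members had all Eµ-PRMT5 mice above and 2 below it, 7 had all Eµ-PRMT5/TCL1 mice below it, and 26 of 81 were lowest in it. With at least 10 counts in every sample, 0 members had either group below it. With NA counted as 0, 8 and 7 members passed the unadjusted threshold, 4 had all Eµ-PRMT5 mice below Eµ-TCL1, Ndufs1 and Cox7a2l turned to 0.13 and 0.15 in Eµ-PRMT5 mice, and Ndufc1 and Cox4i2 to 0.12 and 0.13 in Eµ-PRMT5/TCL1 mice. With only the groups compared in the fit, 0 and 24 members passed, and 2 had all Eµ-PRMT5/TCL1 mice below Eµ-TCL1. With genes that encode no subunit left out, a choice made after seeing the data, 0 and 2 had the groups below it. For the counts at the unadjusted threshold under these alternatives, and with mice left out, the shares of all genes are not given here. Such counts therefore do not show whether the members differ from other genes. The cause of these changes was not tested.

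With the replicate number as a block, mice 1 to 3 of both genotypes with PRMT5 gave 1 member higher at an unadjusted p under 0.05, 18 members with the Eµ-PRMT5/TCL1 mice above, medians of 0.23 and 0.36 for complexes III and IV, and log2 fold changes of 0.25 for Ndufb8, 0.69 for Atp5a1 and 0.61 for Atp5b. The same mice without the block gave 18 members, 0.22 for complex III, 0.22 for Ndufb8, 0.66 for Atp5a1 and 0.58 for Atp5b, so leaving out Eµ-PRMT5 mouse 4 alone turned these signs. The correlations between mice of equal number were 0.02, 0.11 and 0.16.

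With each mouse left out in turn, Eµ-PRMT5/TCL1 against Eµ-PRMT5 mice gave 0 to 18 members with groups apart and higher and 0 to 4 lower, a median of -0.24 to 0.21 over the members and -0.39 to 0.20 over complex III. Ndufb8 ranged from -0.90 to 0.22, Atp5a1 from -0.42 to 0.67, Atp5b from -0.27 to 0.58, Atp5g2 from -0.015 to 0.73 and Cox4i2 from -0.12 to 1.10. Without mouse 3 of the Eµ-PRMT5 group, 4 members were apart and lower, and 3 without Eµ-PRMT5/TCL1 mouse 3. In Eµ-PRMT5 mice against Eµ-TCL1, 1 to 12 members passed the unadjusted threshold and 1 to 4 had all mice below it, with Ndufs1 between -0.34 and 0.0046 and Cox7a2l between -0.39 and 0.0694. In Eµ-PRMT5/TCL1 mice against it the ranges were 0 to 11 and 2 to 6, with Cox4i2 between -0.56 and 0.11. In these 3 comparisons 0 members passed the adjusted threshold in either direction under any alternative. Of 326 recomputed counts 284 stayed within 1.5 times, and of 642 fold changes of named genes 21 changed sign. The shallowest library, Eµ-TCL1 with 3356297 counts, limits the genes of few counts most.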

Other observations

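The carriers that link the complexes to the rest of the cell were measured beside the subunits. Of 12 such genes 10 were highest in Eµ-PRMT5 mouse 4, with a median log2 difference of 0.98 to the other 3 mice. Slc25a5, an exchanger of ADP for ATP, measured 446, 982, 946 and 2976 CPM across Eµ-PRMT5 mice 1 to 4, 1321, 1082 and 1369 CPM across Eµ-PRMT5/TCL1 mice 1 to 3 and 467 CPM for Eµ-TCL1. Cytochrome c (Cycs) measured 113, 187, 123.1 and 381 CPM, then 281, 179.7 and 166 CPM, and 83.0 CPM for Eµ-TCL1. Gpd2, which feeds electrons from glycerol phosphate into the chain, was at 130.2, 204 and 62.9 CPM across the Eµ-PRMT5/TCL1 mice and at 55.4 to 91.7 CPM in the Eµ-PRMT5 mice, a log2 fold change of 0.81 (SE 0.40), and the groups overlapped.

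Regulators of mitochondrial biogenesis showed no such order as a list. Of 17 genes 4 were highest in Eµ-PRMT5 mouse 4, near the share over all genes tested (20.1%). The median log2 difference to the other 3 mice was 0.20. The 4 were Gabpa, Ppargc1b, Nrf1 and Polrmt, with Nrf1 nearly level in mouse 2 (172.03 CPM in mouse 4, 171.78 CPM in mouse 2). For each of the 4 genes some other mouse was below Eµ-TCL1. Gabpa measured 45.3, 54.8, 38.5 and 89.8 CPM across Eµ-PRMT5 mice 1 to 4. It was at 61.8, 61.3 and 56.4 CPM across the Eµ-PRMT5/TCL1 mice and at 44.6 CPM for Eµ-TCL1. Ppargc1b, at 18.1 CPM in mouse 4, was 4.22-fold above the mean of the other 3. Ppargc1a, of the same list, went the other way. It was at 2.31 CPM in mouse 4, the lowest of the 8 mice and 0.178 times the mean of Eµ-PRMT5 mice 1 to 3. Nrf1 lay between 111 and 172 CPM and Tfam, a factor for mitochondrial DNA, between 56.4 and 82.6 CPM over the 8 mice. Myc measured 55.8, 368, 267 and 211 CPM across the Eµ-PRMT5 mice, 144, 219 and 474 CPM across the Eµ-PRMT5/TCL1 mice and 84.6 CPM for Eµ-TCL1. Myc was highest in mouse 2 of the former and mouse 3 of the latter group. The part of these regulators in the subunit levels was not tested.

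Summed plasma cell markers (5 of 5 measured) spanned 681 to 5740 CPM over the Eµ-PRMT5 mice, 508 to 2807 CPM over the Eµ-PRMT5/TCL1 mice and 2005 CPM for Eµ-TCL1. Summed T-cell markers (5 of 8) spanned 203 to 714 CPM, erythroid markers (5 of 8) 20.4 to 348 CPM, NK-cell markers (3 of 5) 13.2 to 85.5 CPM and the 1 of 3 platelet markers measured 2.92 to 22.3 CPM over the 8 mice.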
